A study of Mus musculus with 9 samples.

Results

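DNA replication and S phase genes are the genes whose products license origins, unwind and copy DNA, supply deoxynucleotides, watch the fork and repack the new DNA into chromatin. The 40 genes described here were taken by name from the deposited count table, out of 48663 named entries, from a list drawn up with earlier results of these data known. They were read in 9 RNA sequencing libraries of virus-specific memory T cells, 3 libraries in each of 3 groups. The cells came from spleens of mice infected with LCMV Arm, the Armstrong strain of lymphocytic choriomeningitis virus, and were sorted at day 30. CD4 control cells carried the population label GP66:I-Ab+ and came from Ox40-Cre- mice. CD4 ThpokAD cells had the same GP66:I-Ab+ label and came from Ox40-Cre+ Thpokfl/fl mice. CD8 control cells carried the label GP33:H-2Db+ and came from Ox40-Cre- mice. Thpok, encoded by Zbtb7b, is the transcription factor on which helper identity of CD4 T cells depends, and Ox40 is a costimulatory receptor that T cells gain on activation, so Ox40-driven Cre acts in cells that have turned that gene on. Whether the control mice carried floxed Thpok alleles was not given in the sources used here, and since only the ThpokAD mice carried Cre, an effect of Cre and one of Thpok loss cannot be told apart. The CD8 control differs from both CD4 groups in lineage, peptide and MHC molecule at once, and these cannot be told apart either.

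Before S phase, Cdc6 and Cdt1 load the Mcm2-7 helicase onto origins. Cyclin E with Cdk2 and the Dbf4-dependent kinase then fire those origins, with Mcm10, Cdc45 and the GINS complex turning the loaded ring into a moving helicase. The transcription factor E2F1 drives many of these genes once cyclin-dependent kinases have inactivated the retinoblastoma protein. Resting memory T cells are mostly out of the cell cycle, and a small share of them divides at any time to maintain the pool.

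Library totals ranged from 16664474 to 38981516 counts, the CD8 control replicate 3 library being the deepest, and 0.129% to 0.310% of the counts fell on the 40 genes. All 40 genes passed the low-count filter and were among the 15738 genes tested. Clspn and Cdc6 would not have passed without their ThpokAD libraries, and a fit of the 6 control libraries alone tested 38 of the 40. Levels are given as CPM, counts per 1000000 counts of the library after TMM scaling of library sizes, always for replicates 1, 2 and 3 in that order. Zbtb7b (chr3:89377644-89394776, - strand, mm10) was at 38.5, 47.6 and 48.9 CPM in the CD4 control libraries, 0.698, 0.875 and 0.849 in the ThpokAD libraries and 24, 19.4 and 18.8 in the CD8 control libraries, and the ThpokAD libraries were lower than all others (log2 fold change -5.79, SE 0.264, edgeR adjusted p = 3.35e-05 against CD4 control). The summed level of Cd4, Cd40lg and Zbtb7b was 1744 to 1863 CPM in CD4 control, 672 to 824 in ThpokAD and 21.1 to 30.6 in CD8 control libraries. The summed level of Cd8a and Cd8b1 was 17.8 to 27.9, 90.8 to 123 and 2830 to 3832 CPM in the same order, as the labels of the groups imply. Mitochondrially encoded genes took 2.33% to 3.80% of the counts in CD4 control, 1.78% to 2.44% in ThpokAD and 1.08% to 2.57% in CD8 control libraries. The labels number the replicates without naming an animal for each. The p-values below therefore rest on the spread between libraries alone, part or all of which may be technical.

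The replication genes were higher in ThpokAD than in CD4 control memory cells. Their summed level was 1338, 1389 and 1446 CPM in the CD4 control libraries, 3133, 2569 and 2778 in the ThpokAD libraries and 1531, 1333 and 1643 in the CD8 control libraries. The ThpokAD libraries stood above all 6 control libraries, and the CD4 and CD8 control libraries overlapped. The ratio of mean summed levels was 2.03 for ThpokAD to CD4 control and 1.88 for ThpokAD to CD8 control. With bulk RNA, a larger share of cells in S phase and more RNA of these genes per cell cannot be told apart.

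**Figure D1:**
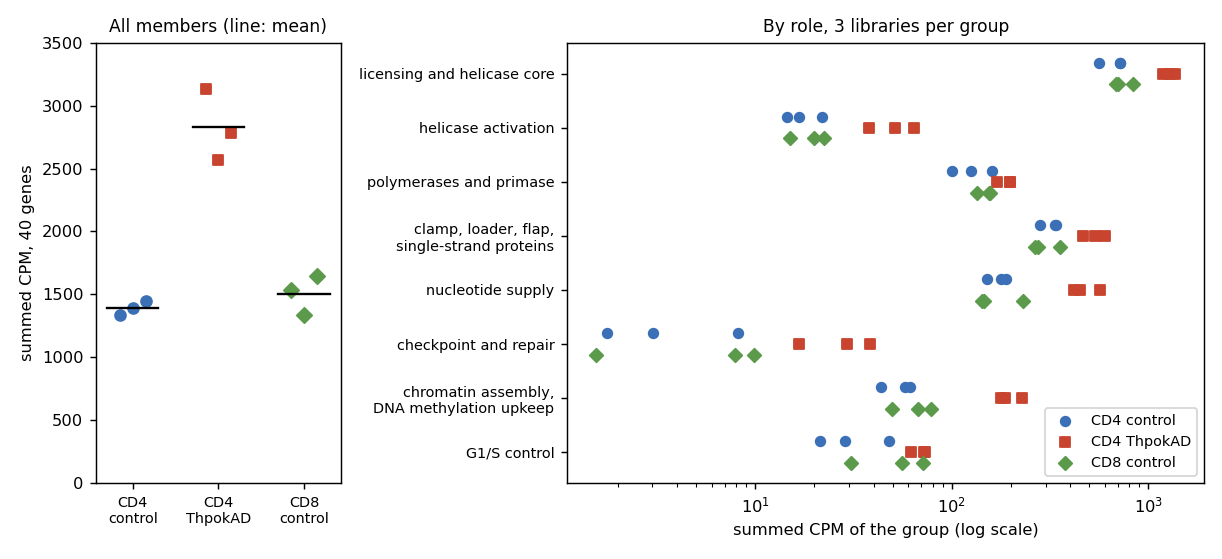
Left, summed CPM of the 40 replication and S phase genes in each library, with lines at group means; right, the same sum for each of 8 role groups on a log axis, 3 libraries per group. The ThpokAD libraries lie at 2569 to 3133 CPM, above the control range of 1333 to 1643. The ratio of ThpokAD to CD4 control means is largest for checkpoint and repair genes (6.48) and smallest for polymerases (1.47). The 6.48 rests largely on Clspn, at a mean of 0.123 CPM in CD4 control and 13.2 in ThpokAD libraries. Clspn passed the low-count filter only through its ThpokAD libraries, so the first place of this group is not a result. For G1/S control the ThpokAD and CD8 control libraries overlap.

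Gene by gene, 9 of the 40 rose in ThpokAD against CD4 control cells and 0 fell (edgeR quasi-likelihood test, Benjamini-Hochberg adjusted p under 0.05), where 1.81% of all genes tested were called higher and 0.928% lower. At an unadjusted p under 0.05, 25 were higher and 0 lower, against 8.77% and 6.91% of all genes tested. The log2 fold change was above 0 for 39 of 40 genes, with a median of 1.21 beside 0.0035 over all genes tested and a range from -0.32 to 6.70. For 31 of the 40 genes every ThpokAD library lay above every CD4 control library, against 13.2% of all genes tested, and for 0 genes every ThpokAD library lay below, against 12.5%. For 25 genes the 3 ThpokAD libraries lay above all 6 control libraries, against 4.26% of all genes tested, and for 0 they lay below all 6, against 2.31%. Clspn and Cdc6, which passed the filter only through their ThpokAD libraries, are among the 31 and the 25, and Clspn is among the 9 called. For these genes the counts are no support. The number of calls rested on every CD4 library. It was 3, 2 and 4 with CD4 control replicate 1, 2 or 3 left out, and 2, 3 and 4 with ThpokAD replicate 1, 2 or 3 left out.

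**Figure D2:**
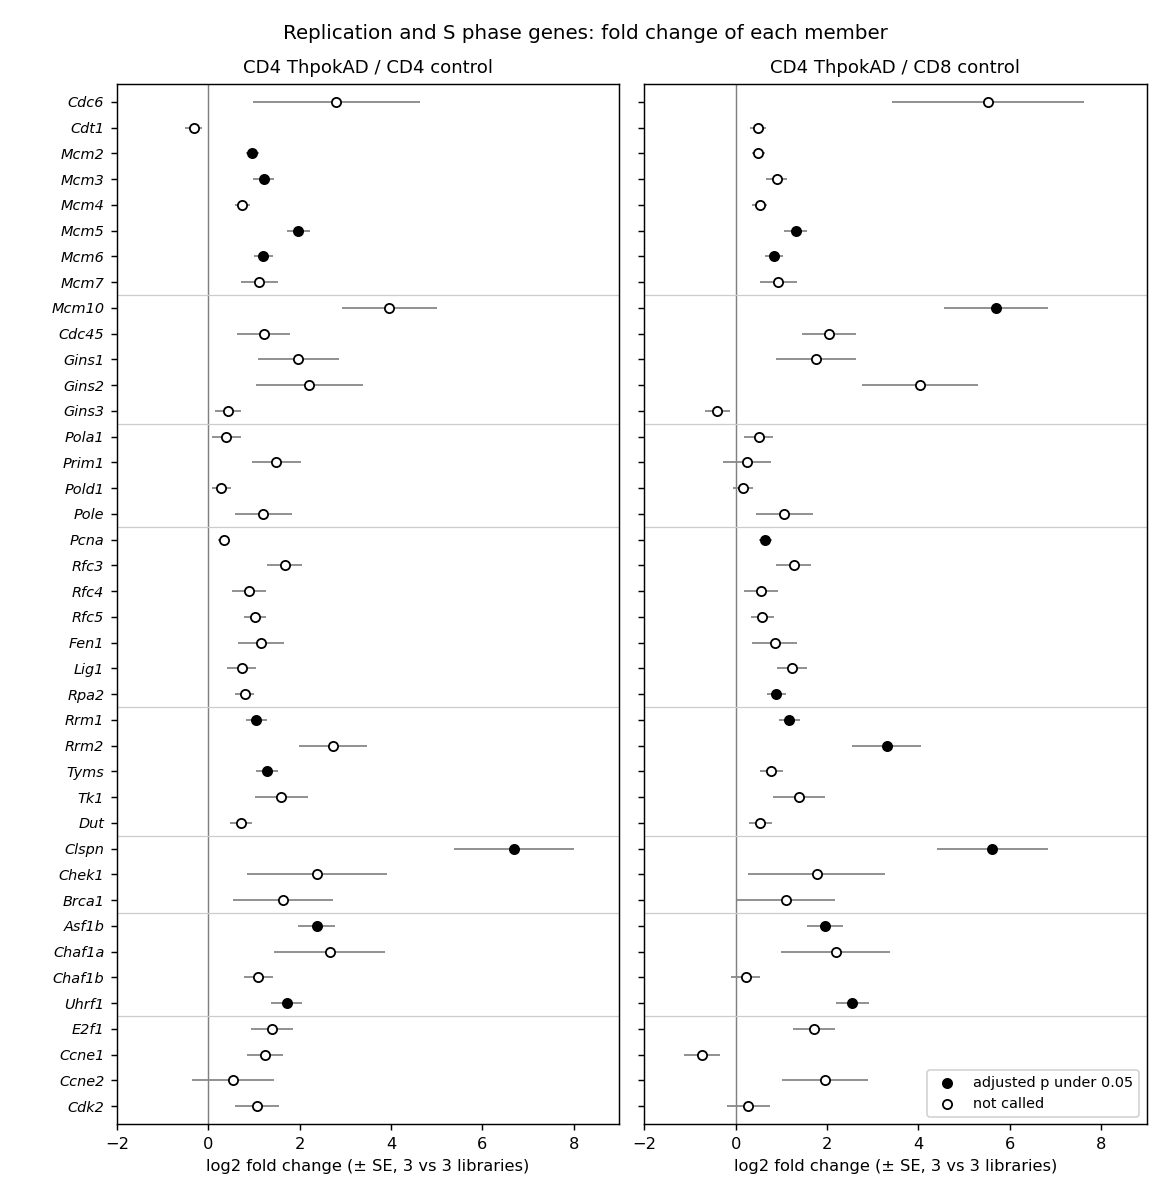
Fold change (log2, ± SE, 3 against 3 libraries) of each of the 40 genes in ThpokAD against CD4 control cells (left) and against CD8 control cells (right), with grey lines between role groups. Filled points had an edgeR adjusted p under 0.05; 39 genes on the left and 38 on the right lie above 0.

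Among the 8 licensing and helicase genes, 4 rose in ThpokAD against CD4 control cells, and the median log2 fold change of the group was 1.16. All 4 encode subunits of the Mcm2-7 ring. Mcm5 (chr8:75109569-75128439, + strand) was at 40.3, 34.2 and 50.1 CPM in the CD4 control libraries, 149, 150.5 and 189 in the ThpokAD libraries and 61.7, 45.9 and 88 in the CD8 control libraries. Its ThpokAD libraries stood clear of all control libraries, and the rise was 3.92-fold (log2 fold change 1.97, SE 0.257, edgeR adjusted p = 0.00501). It kept its call in each of the 9 fits that left out 1 library, with an adjusted p of at most 0.0326, and among the 9 called genes only Mcm5 did so.

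Mcm6 (chr1:128331590-128359664, - strand) was at 116, 184 and 201 CPM in the CD4 control libraries, 432, 373 and 349 in the ThpokAD libraries and 198, 197 and 249 in the CD8 control libraries. The ThpokAD values did not overlap either control group, and the rise against CD4 control was 2.30-fold (log2 fold change 1.20, SE 0.207, edgeR adjusted p = 0.0188). Mcm2 (chr6:88883474-88898780, - strand) was at 70.2, 79.3 and 79.7 CPM in the CD4 control libraries, 126, 146 and 176 in the ThpokAD libraries and 103, 100.3 and 113 in the CD8 control libraries. Its 3 groups did not overlap at all, with CD8 control between the others, and Mcm2 rose 1.95-fold in ThpokAD against CD4 control (log2 fold change 0.96, SE 0.148, edgeR adjusted p = 0.0117). Mcm3 (chr1:20802968-20820312, - strand) was at 48.5, 70.5 and 63.2 CPM in the CD4 control libraries, 184, 121 and 119 in the ThpokAD libraries and 91.3, 64.3 and 72.4 in the CD8 control libraries. ThpokAD replicate 1 was the highest library, the control groups overlapped, and the rise was 2.33-fold (log2 fold change 1.22, SE 0.231, edgeR adjusted p = 0.0284). Mcm2 was no longer called when CD4 control replicate 1 or 2 was left out (adjusted p up to 0.0606), Mcm6 when CD4 control replicate 2 or ThpokAD replicate 1 or 2 was (up to 0.0794), and Mcm3 when any 1 of the 6 libraries compared was (up to 0.107).

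The other ring subunits were not called. Mcm4 was at 106, 140.4 and 131 CPM in the CD4 control libraries, 231, 174 and 229 in the ThpokAD libraries and 129, 147 and 166 in the CD8 control libraries, and the groups of CD4 cells did not overlap (log2 fold change 0.75, SE 0.167, edgeR adjusted p = 0.0542). For Mcm7 the log2 fold change was 1.12 with an SE of 0.412, CD4 control replicate 1 being far below the other 2 CD4 control libraries at 18.6 CPM. The loader Cdc6 was at 0, 0 and 10.7 CPM in the CD4 control libraries, 16.7, 28.4 and 30 in the ThpokAD libraries and 1.38, 0 and 0.247 in the CD8 control libraries. It had no counts in CD4 control replicates 1 and 2 or in CD8 control replicate 2, and its log2 fold change of 2.81 had an SE of 1.83. Cdt1, the partner of Cdc6 in loading, was the only one of the 40 genes with a negative log2 fold change. It was at 161, 159 and 129 CPM in the CD4 control libraries, 146, 114 and 99 in the ThpokAD libraries and 86.8, 96.2 and 73.9 in the CD8 control libraries, and the values of the CD4 groups overlapped (log2 fold change -0.32, SE 0.179, edgeR adjusted p = 0.458).

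Promoters of the ring genes are shown because E2F factors are the textbook activators of this pathway and the 3 genes printed had the smallest adjusted p among those with an E2F-type motif. Sequences are from RefSeq (GRCm38.p6), in windows from 250 bases before to 50 after each start. Capitals mark matches to the string TTCGCGC, to the string TTGGCGC, to the string TTCCCGC or to the string TTGCCGC on either strand, and overlapping matches run together. Mcm5 is shown for the 250 bases before its start (chr8:75109259-75109508, + strand), with matches that begin 164, 152 and 149 bases before the start. Mcm6 is shown for the same stretch (chr1:128359706-128359955, - strand), with matches from 109, 106, 46 and 43 bases before the start. Mcm3 had its matches downstream of the start and is shown for 30 bases there (chr1:20820264-20820293, - strand), with matches from 20, 40 and 43 bases after it.
Mcm5: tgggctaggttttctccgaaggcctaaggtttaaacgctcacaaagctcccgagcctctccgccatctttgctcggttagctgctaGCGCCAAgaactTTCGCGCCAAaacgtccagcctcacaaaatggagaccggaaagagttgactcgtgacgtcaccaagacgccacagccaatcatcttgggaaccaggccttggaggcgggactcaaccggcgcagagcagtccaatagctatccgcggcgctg
Mcm6: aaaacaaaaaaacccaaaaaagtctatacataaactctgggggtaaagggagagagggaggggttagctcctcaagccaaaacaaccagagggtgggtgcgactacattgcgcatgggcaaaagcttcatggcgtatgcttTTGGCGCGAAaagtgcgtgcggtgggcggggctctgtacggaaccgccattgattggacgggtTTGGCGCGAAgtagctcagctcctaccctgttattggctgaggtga
Mcm3: GCGGGAAaacttgggaagttTTGGCGCCAA
In Mcm6 each pair of matches forms the run TTGGCGCGAA, and Mcm5 and Mcm3 each hold a run in which matches on opposite strands overlap.

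Of the 35 genes with a RefSeq promoter entry, 24 (68.6%) held an E2F-type motif in the window, beside 17.3% of 9445 tested genes with an entry and 9.77% of all 27025 entries. Since E2F1 drives many genes of this kind, the excess follows from the choice of genes. It does not bear on the ThpokAD cells. The motif was in 6 of 7 licensing promoters, in 3 of 3 polymerase and 3 of 3 checkpoint promoters, and in 2 of 5 nucleotide supply promoters. CCAAT, on either strand, was in 21 of the 35 (60.0%), beside 38.7% of tested genes. TTTGAA, on either strand, was in 4 (11.4%), beside 11.9%. Of the 9 genes that rose, 6 (66.7%) held an E2F-type motif, close to the 68.6% of the 35, so the motif did not set them apart. CCAAT was in 8 (88.9%) and TTTGAA in 2 (22.2%) of the 9. No difference between these shares was tested. Mcm2, Tyms and Asf1b had none of the 4 E2F-type strings in this window. The start used lay 187 bases from that of the first annotated transcript (GENCODE M21) for Asf1b, 8 for Tyms and 0 for Mcm2. For 29 of the 35 genes, the bases after the start were found among the first bases of an annotated transcript. A motif missing from the window may lie outside it. Mcm4, Gins1, Gins2, Pole and Ccne2 had no entry. A match is a string in the sequence, not a measured binding site.

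None of the 5 helicase activation genes was called (1 had an unadjusted p under 0.05). Their median log2 fold change was 1.97, and for all 5 the ThpokAD libraries lay above every CD4 control library. Mcm10, which helps to open the loaded helicase, was at 0.497, 1.20 and 1.05 CPM in the CD4 control libraries, 11, 10.7 and 21.5 in the ThpokAD libraries and 0.669, 0 and 0.148 in the CD8 control libraries. It was close to absent in both control groups, with 47 counts summed over the CD4 control libraries and 821 over the ThpokAD libraries (log2 fold change 3.96, SE 1.04, edgeR adjusted p = 0.0916), and it was called when CD8 control replicate 2 was left out (adjusted p = 0.0291). Cdc45, a subunit of the moving helicase, was at 5.28, 5.60 and 8.74 CPM in the CD4 control libraries, 17.9, 9.74 and 18 in the ThpokAD libraries and 4.14, 1.07 and 5.82 in the CD8 control libraries. The ThpokAD libraries were the highest (log2 fold change 1.22, SE 0.583, edgeR adjusted p = 0.363). Gins3, a subunit of the GINS complex, was at 8.39, 6.29 and 8.10 CPM in the CD4 control libraries, 12, 9.35 and 9.34 in the ThpokAD libraries and 12.3, 13.6 and 14.6 in the CD8 control libraries. Here the CD8 control libraries were the highest of all, above every ThpokAD library. For Gins1 and Gins2 the log2 fold changes were 1.97 (SE 0.893) and 2.21 (SE 1.18). Gins2 shares 67.3% of its exon bases with Gse1 on the other strand.

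The 4 polymerase and primase genes had the smallest ratio of mean summed levels among the 8 role groups, 1.47 for ThpokAD to CD4 control, with 0 of 4 called (1 at an unadjusted p under 0.05). Pold1, the catalytic subunit of lagging strand polymerase delta, was at 89.2, 53.3 and 89.4 CPM in the CD4 control libraries, 81.5, 98.8 and 101 in the ThpokAD libraries and 92.1, 81.7 and 78.2 in the CD8 control libraries. All 3 groups overlapped (log2 fold change 0.28, SE 0.210, edgeR adjusted p = 0.612). Pola1, which starts new strands with primase, was at 21, 38.3 and 26.3 CPM in the CD4 control libraries, 46.7, 39 and 26.9 in the ThpokAD libraries and 24.2, 20.9 and 34.4 in the CD8 control libraries. These groups overlapped too (log2 fold change 0.40, SE 0.310, edgeR adjusted p = 0.63). For the primase subunit Prim1 the log2 fold change was 1.49 (SE 0.535), and for the leading strand polymerase subunit Pole it was 1.21 (SE 0.626). CD4 control replicate 3 was the highest CD4 control library for both of these, at 20.8 CPM of Prim1 and 23.9 CPM of Pole, and with that library left out Prim1 was called (adjusted p = 0.0149).

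None of the 7 genes of the clamp, clamp loader, flap and single-strand proteins was called against CD4 control (6 had an unadjusted p under 0.05), with a median log2 fold change of 0.90. Pcna, the sliding clamp that tethers polymerases, was at 85.5, 91.8 and 83 CPM in the CD4 control libraries, 116, 105 and 109 in the ThpokAD libraries and 73.9, 60.1 and 76.7 in the CD8 control libraries. The 3 groups did not overlap, ThpokAD being highest and CD8 control lowest, but the step from CD4 control was only 1.27-fold (log2 fold change 0.34, SE 0.136, edgeR adjusted p = 0.256). Rpa2, which coats single-stranded DNA, was at 155, 161 and 129.8 CPM in the CD4 control libraries, 288, 219 and 267 in the ThpokAD libraries and 107, 123 and 188 in the CD8 control libraries. ThpokAD libraries were above all control libraries (log2 fold change 0.80, SE 0.214, edgeR adjusted p = 0.098), and Rpa2 was called when CD8 control replicate 3 was left out (adjusted p = 0.0330). The clamp loader subunits Rfc3, Rfc4 and Rfc5 had log2 fold changes of 1.67, 0.90 and 1.02, with adjusted p of 0.059, 0.287 and 0.0713 by edgeR. DNA ligase 1, Lig1, had a log2 fold change of 0.73 (SE 0.322). The flap nuclease gene Fen1 read only 1.34 ± 0.0261 CPM in CD4 control and 2.97 ± 0.135 in ThpokAD libraries, and 84.2% of its exon bases overlap other genes, among them Tmem258, so its level is uncertain. Pcna has 2 named pseudogenes and Tyms has 1, which could share reads.

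In nucleotide supply, 2 of 5 genes rose, with a group median of 1.28. Thymidylate synthase, Tyms (chr5:30058202-30073617, - strand), makes thymidylate from deoxyuridylate. It was at 25.7, 24.5 and 23.2 CPM in the CD4 control libraries, 64.2, 56.3 and 58.5 in the ThpokAD libraries and 48.5, 30.7 and 24.7 in the CD8 control libraries. The libraries of each CD4 group were close to one another and the groups did not overlap (log2 fold change 1.28, SE 0.247, edgeR adjusted p = 0.0296). Rrm1 and Rrm2 encode the large and small subunits of ribonucleotide reductase, which makes deoxynucleotides, and Rrm2 is the subunit that cells accumulate in S phase. Rrm1 (chr7:102441695-102469771, + strand) was at 97.2, 60.2 and 90.5 CPM in the CD4 control libraries, 213, 146 and 155 in the ThpokAD libraries and 89.1, 64.6 and 74.2 in the CD8 control libraries. ThpokAD libraries were the highest of all, with a 2.07-fold rise (log2 fold change 1.05, SE 0.228, edgeR adjusted p = 0.0474). Rrm2 was at 23.1, 22.1 and 33.9 CPM in the CD4 control libraries, 211, 158 and 158 in the ThpokAD libraries and 41.2, 3.59 and 8.38 in the CD8 control libraries. It stood 6.66-fold higher in ThpokAD than in CD4 control cells with no overlap, but was not called (log2 fold change 2.74, SE 0.740, edgeR adjusted p = 0.101), and its CD8 control replicate 1 was far above the other libraries of that group. Rrm2 was called when CD8 control replicate 1 (adjusted p = 0.00877) or replicate 2 (0.0374) was left out of the fit. The call of Tyms was lost without any 1 of the 6 libraries compared (adjusted p up to 0.113) and that of Rrm1 without any 1 of the 9 (up to 0.160). The thymidine kinase gene Tk1 and the dUTPase gene Dut had log2 fold changes of 1.59 (SE 0.580) and 0.71 (SE 0.244).

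The checkpoint and repair genes held the largest fitted change, that of a gene that entered the test only through its ThpokAD libraries. Clspn (chr4:126556935-126593903, + strand) encodes claspin, which hands the stalled-fork signal from ATR to the kinase Chk1. It was at 0.311, 0 and 0.0583 CPM in the CD4 control libraries, 15.5, 9.02 and 15 in the ThpokAD libraries and 0.0836, 0.0484 and 0.616 in the CD8 control libraries. In counts, these were 5, 0 and 1 in the CD4 control libraries against 310, 165 and 283 in the ThpokAD libraries. Clspn was thus nearly undetected in both control groups and present in each ThpokAD library (log2 fold change 6.70, SE 1.32, edgeR adjusted p = 0.0325), with a fold that rests on 6 control counts. With CD4 control replicate 2 or 3, or any ThpokAD library, left out it was no longer called (adjusted p up to 0.124). Brca1, a fork protection and recombination gene, was at 7.89, 0.572 and 1.69 CPM in the CD4 control libraries, 13.2, 7.60 and 10.9 in the ThpokAD libraries and 7.73, 0.388 and 6.58 in the CD8 control libraries. A single library in each control group reached the ThpokAD range (log2 fold change 1.64, SE 1.09, edgeR adjusted p = 0.553). Chek1, which encodes Chk1, was highest in ThpokAD replicate 1, at 9.53, 0.109 and 3.39 CPM in the 3 ThpokAD libraries against 0, 1.20 and 1.28 in CD4 control (log2 fold change 2.38, SE 1.54, edgeR adjusted p = 0.538).

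Of the 4 genes of chromatin assembly and DNA methylation upkeep, 2 rose, with a group median of 2.04, and for all 4 the ThpokAD and CD4 control libraries did not overlap. Asf1b (chr8:83955507-83970197, + strand), the histone chaperone that passes new H3-H4 to the fork, was at 13.9, 21.2 and 12.1 CPM in the CD4 control libraries, 112, 62.5 and 70.1 in the ThpokAD libraries and 31, 11.8 and 20.1 in the CD8 control libraries. ThpokAD replicate 1 was the highest and the control groups overlapped, with a 5.18-fold rise (log2 fold change 2.37, SE 0.402, edgeR adjusted p = 0.0178). Uhrf1 (chr17:56303321-56323486, + strand), which recruits the maintenance methyltransferase to newly copied CpG sites, was at 24.6, 11.8 and 21.1 CPM in the CD4 control libraries, 66, 59.7 and 63.1 in the ThpokAD libraries and 13.7, 6.25 and 12.1 in the CD8 control libraries. Its ThpokAD libraries were nearly level with one another and far above both control groups (log2 fold change 1.71, SE 0.347, edgeR adjusted p = 0.036). Asf1b was no longer called with CD4 control replicate 1 or 3 or with ThpokAD replicate 1 left out (adjusted p up to 0.0851), nor Uhrf1 without any 1 of the 6 libraries compared or CD8 control replicate 3 (up to 0.113). Chaf1a and Chaf1b, subunits of the chromatin assembly factor CAF-1, had log2 fold changes of 2.66 (SE 1.22) and 1.09 (SE 0.318), and Chaf1a, called when CD8 control replicate 2 was left out (adjusted p = 0.0300), shares 52.5% of its exon bases with Ubxn6.

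None of the 4 genes of G1/S control was called against CD4 control (2 had an unadjusted p under 0.05), with a median of 1.15. Ccne1, which encodes cyclin E1, was at 8.76, 4.46 and 7.81 CPM in the CD4 control libraries, 23.4, 15.1 and 11.2 in the ThpokAD libraries and 37.4, 19.2 and 26.2 in the CD8 control libraries. It was lowest in CD4 control, and the CD8 control values overlapped those of ThpokAD (log2 fold change 1.24, SE 0.397, edgeR adjusted p = 0.16 for ThpokAD against CD4 control). Cdk2, its kinase partner, was at 10.9, 7.32 and 8.57 CPM in the CD4 control libraries, 22.1, 14.7 and 18.9 in the ThpokAD libraries and 18.9, 5.23 and 21.8 in the CD8 control libraries. CD8 control replicate 2 was far below the other libraries of its group (log2 fold change 1.06, SE 0.483, edgeR adjusted p = 0.338). E2f1 and Ccne2 had log2 fold changes of 1.39 (SE 0.457) and 0.54 (SE 0.905).

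**Figure D3:**
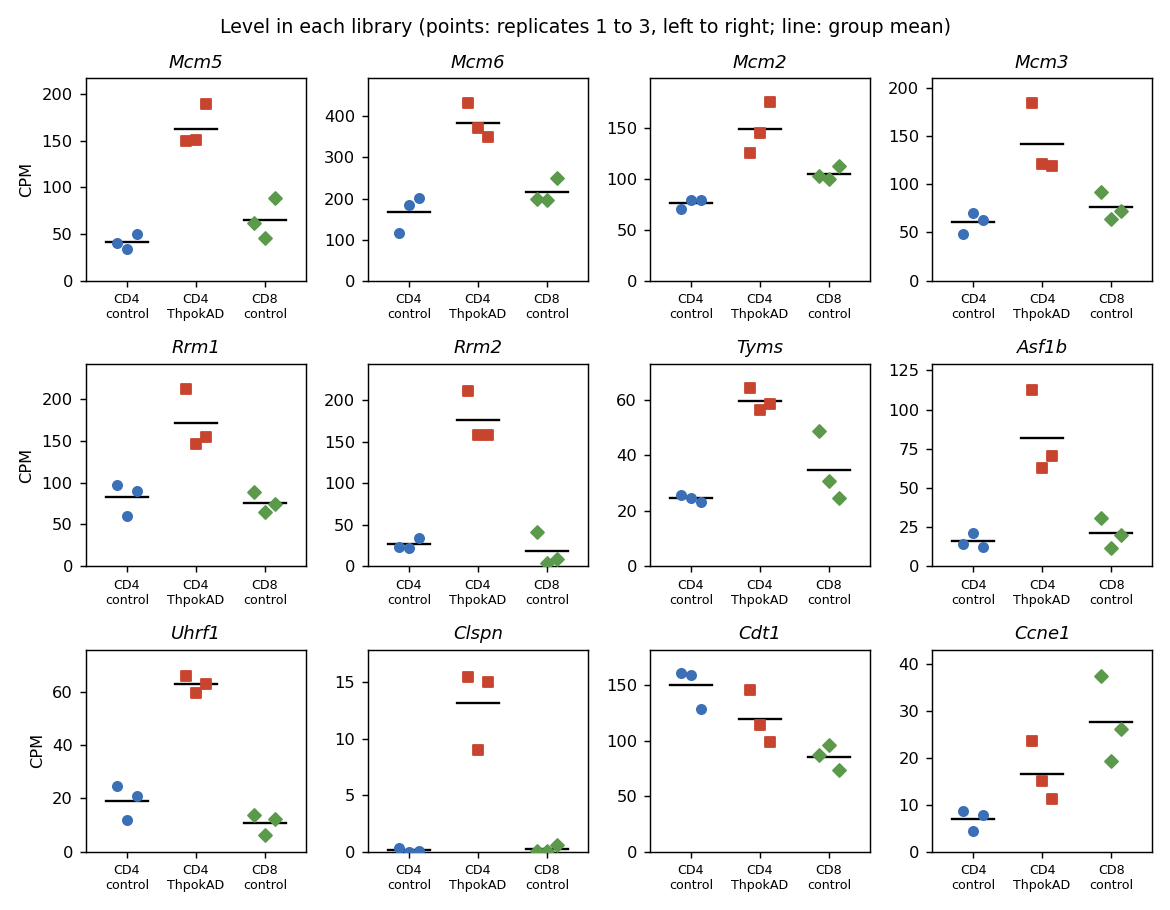
Level in CPM of 12 of the genes in each library, linear axes from 0, with replicates 1 to 3 from left to right and lines at group means. For the 10 genes from Mcm5 to Clspn the ThpokAD libraries lie above all 6 control libraries; Cdt1 is highest in CD4 control and Ccne1 in CD8 control.

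The 2 kinds of control cells were compared in the same fit. In CD8 control against CD4 control, 1 of 40 rose and 1 fell, where 5.13% and 6.55% of all genes tested were called (808 and 1031 genes, or 1140 and 879 with libraries scaled by their totals). With 40 genes, 1 call each way does not set them apart from those shares. At an unadjusted p under 0.05, 6 were higher and 2 lower, against 13.1% and 13.1% of all genes tested. For 6 genes all CD8 control libraries lay above all CD4 control libraries, and for 2 they lay below, against 17.3% and 16.6% of all genes. The median log2 fold change was 0.22, with 26 genes above 0. Ccne1, at 8.76, 4.46 and 7.81 CPM in CD4 control and 37.4, 19.2 and 26.2 in CD8 control libraries, rose 3.94-fold (log2 fold change 1.98, SE 0.404, edgeR adjusted p = 0.0144). Cdt1 was 1.75-fold lower in CD8 control, with no overlap (log2 fold change -0.81, SE 0.180, edgeR adjusted p = 0.0215). With CD4 control replicate 2 left out Ccne1 was no longer called (adjusted p = 0.0562), and Cdt1 was not called with CD4 control replicate 1 or 2, or with CD8 control replicate 1 or 3, left out (up to 0.0805). Genes not called with all libraries were called with 1 left out: Prim1 (adjusted p = 0.00634) and Chaf1b (0.0390) as higher in CD8 control with CD4 control replicate 3 left out, Rrm2 as lower with CD8 control replicate 1 left out (0.0163), and Gins2 as lower with CD8 control replicate 3 left out (0.0187).

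Set against the CD8 control cells, 10 of the 40 genes were higher in ThpokAD cells and 0 lower, where 4.63% and 1.91% of all genes tested were called (729 and 301 genes, or 631 and 423 with libraries scaled by their totals). At an unadjusted p under 0.05, 24 of the 40 were higher and 0 lower, against 12.2% and 9.09% of all genes tested. This comparison shares its ThpokAD libraries with the one against CD4 control, so the calls of the 2 comparisons are not independent. The median log2 fold change was 1.00, with 38 genes above 0. In 27 genes every ThpokAD library was above every CD8 control library, against 14.6% of all genes, and in 1, Gins3, every one was below, against 12.6%. Clspn and Cdc6, which passed the filter only through their ThpokAD libraries, are among the 27, and Clspn is among the 10 called. Uhrf1 rose 5.88-fold (log2 fold change 2.56, SE 0.357, edgeR adjusted p = 0.00376) and was the only one of the 10 to keep its call in all 9 fits that left out 1 library, with an adjusted p of at most 0.0175. Among the helicase genes, Mcm5 rose 2.50-fold (log2 fold change 1.32, SE 0.252, edgeR adjusted p = 0.0166) and Mcm6 1.79-fold (log2 fold change 0.84, SE 0.205, edgeR adjusted p = 0.0451), and Mcm10 rose from 22 counts summed over the CD8 control libraries to 821 (log2 fold change 5.70, SE 1.14, edgeR adjusted p = 0.0205). Both reductase subunits were called, Rrm1 with a log2 fold change of 1.17 (adjusted p = 0.018) and Rrm2 with 3.31 (adjusted p = 0.036), both by edgeR. The other calls were Asf1b (1.96, edgeR adjusted p = 0.0213), Pcna (0.65, 0.0251), Clspn (5.62, 0.0287) and Rpa2 (0.89, 0.0426). Without CD8 control replicates 1, 2 and 3 in turn there were 7, 4 and 6 calls, and without ThpokAD replicates 1, 2 and 3 there were 3, 5 and 3. Each of the 9 called genes other than Uhrf1 lost its call in 2 to 8 of the 9 such fits (adjusted p up to 0.149). Genes not called with all 9 libraries but called with 1 left out were Tyms (adjusted p = 0.0208) and Tk1 (0.0171) with CD8 control replicate 1 left out, Gins2 with CD8 control replicate 3 (0.00935), E2f1 with CD4 control replicate 1 (0.0362) and Lig1 with CD4 control replicate 3 (0.0174).

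By group means, 24 of the 40 genes were in the order ThpokAD, CD8 control, CD4 control, and 13 in the order ThpokAD, CD4 control, CD8 control. Gins3 and Ccne1 were highest in CD8 control and Cdt1 was highest in CD4 control. Within the ThpokAD group, replicate 1 held the highest value for 24 genes and replicate 2 the lowest for 20. CD8 control replicate 2 was the lowest of its group for 25 genes, and CD4 control replicate 2 of its group for 21. The median coefficient of variation over the 40 genes was 29.9% in CD4 control, 20.6% in ThpokAD and 32.9% in CD8 control. Among the 40 genes, 5 had a library with 0 counts, namely Cdc6, Mcm10, Clspn, Chek1 and Chaf1a, and none of those libraries was a ThpokAD one. For Clspn and Cdc6 this largely follows from the low-count filter, which they passed only through their ThpokAD libraries. Genes with a low CD8 control level tended to have the larger log2 fold changes of ThpokAD against CD4 control (Spearman -0.61, Pearson -0.68, across 40 genes read in the same libraries, which are not independent replicates). A negative value is partly built in, since Clspn and Cdc6, low in the controls, entered the test only through their ThpokAD libraries. No such correlation over all genes tested is given beside it, so no conclusion is drawn from it.

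Levels per kilobase were taken over all annotated exon bases of a gene, from every transcript. This length can exceed that of the RNA present, so the order of genes depends on the annotation. Rrm1 was divided by 11012 bases and Rrm2 by 2771. Among the ring subunits the level per length ran from 8.89 CPM per kb for Mcm7 to 35.8 for Mcm6 in CD4 control cells, and from 19.4 to 82.4 for the same genes in ThpokAD cells. Rpa2 had the highest level per length of the 40 genes in both CD4 groups, at 49.7 and 86.3 CPM per kb. Rrm2 went from 9.52 CPM per kb in CD4 control to 63.4 in ThpokAD cells, while its partner Rrm1 went from 7.51 to 15.6. Clspn was the lowest in CD4 control, at 0.0171 CPM per kb. The 40 genes lie on 15 chromosomes, and 28 share no exon base with another annotated gene.

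Other genes of the same pathways, from lists separate from the 40, were read in the same fit. Of 30 other replication fork genes, such as the ORC subunits and the remaining polymerase subunits, 0 rose and 0 fell in ThpokAD against CD4 control cells (edgeR), with a median log2 fold change of 0.41, and 3 of 30 had all ThpokAD libraries above all 6 control libraries. At an unadjusted p under 0.05, 6 of the 30 were higher and 0 lower, beside the 8.77% and 6.91% of all genes. Against CD8 control, 2 of these 30 rose and 0 fell, where 4.63% and 1.91% of all genes tested were called. The median log2 fold change was 0.06. At an unadjusted p under 0.05, 4 were higher and 2 lower, against 12.2% and 9.09% of all genes. These counts do not set the list apart from all genes. The 2 called were Dbf4 (log2 fold change 1.23, edgeR adjusted p = 0.00353) and Ticrr (3.70, 0.00926), both needed for origin firing. Of 20 other nucleotide synthesis genes, 0 rose and 0 fell against CD4 control (3 and 1 at an unadjusted p under 0.05, not far from the shares over all genes), with a median of 0.09. Among 27 E2F, pocket protein and G1 control genes, 5 rose and 0 fell, with a median of 0.35. The smallest adjusted p values were those of Ccnd3, which encodes cyclin D3, at 222 ± 6.91 CPM in CD4 control, 404 ± 35.2 in ThpokAD and 587 ± 22.1 in CD8 control libraries (SD, n = 3; log2 fold change 0.86, edgeR adjusted p = 0.00279), of the CDK inhibitor gene Cdkn2c (2.17, 0.0144) and of the activator E2F gene E2f2 (2.18, 0.0162). Of 19 homologous recombination and mismatch repair genes, 1 rose, the Brca2 partner gene Palb2, from 0.0621, 0.686 and 0.408 CPM in the CD4 control to 7.38, 13.9 and 12.5 in the ThpokAD libraries (4.84, edgeR adjusted p = 0.0127), and its CD8 control libraries were at 14.5, 6.30 and 8.31. Over all genes tested, 1.81% were called higher and 0.928% lower in ThpokAD against CD4 control cells.

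For 20 G2 and mitosis genes the median log2 fold change of ThpokAD against CD4 control was 2.82, beside 1.21 for the replication genes. Of these, 3 rose and 0 fell, against 1.81% and 0.928% of all genes tested. For all 20 the ThpokAD libraries lay above all 6 control libraries, against 4.26% of all genes tested. The 3 called were the mitotic kinesin gene Kif20a (log2 fold change 2.82, edgeR adjusted p = 0.0252), the spindle assembly gene Tpx2 (3.62, 0.0284) and Ccnb1, which encodes cyclin B1 (2.55, 0.0293). The summed level of the 20 genes was 154, 204 and 145 CPM in CD4 control, 1524, 864 and 1001 in ThpokAD and 192, 61.7 and 64.7 in CD8 control libraries. As a percentage of the summed replication genes, this was 11.5%, 14.7% and 10% in CD4 control, 48.6%, 33.6% and 36% in ThpokAD, and 12.6%, 4.63% and 3.94% in CD8 control libraries. ThpokAD replicate 1, the library with the highest replication sum, was also the one with the highest mitotic sum.

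**Figure D4:**
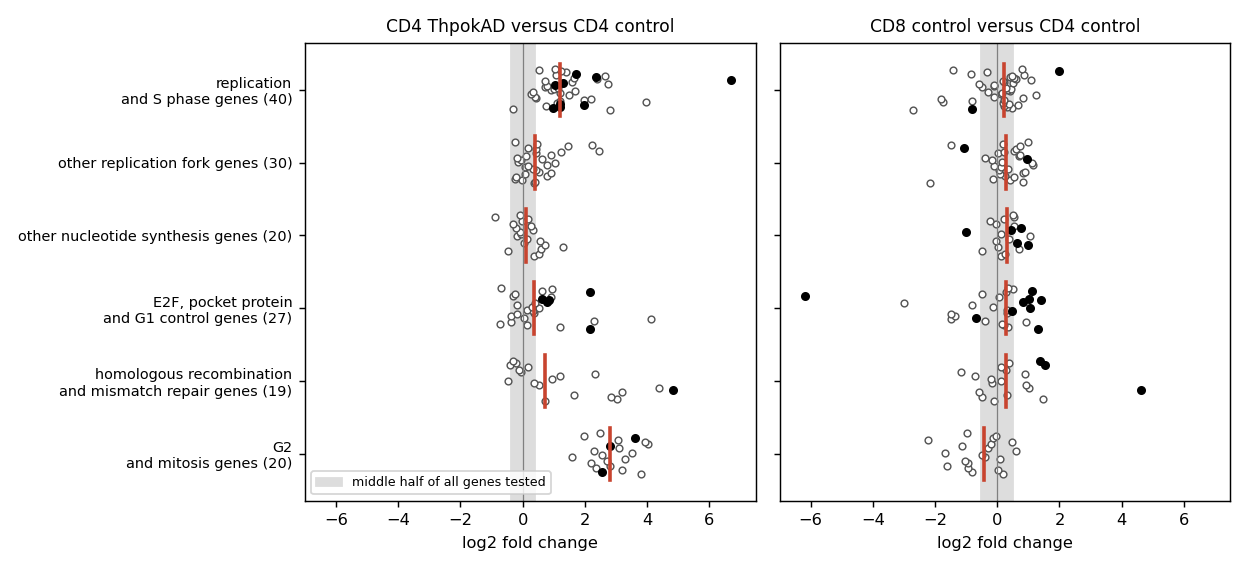
Fold change (log2) of single genes in 6 lists, for ThpokAD against CD4 control (left) and CD8 control against CD4 control (right); red lines are list medians, filled points had an edgeR adjusted p under 0.05, and the grey band is the interquartile range of all genes tested. On the left the medians run from 0.09 for other nucleotide synthesis genes to 2.82 for G2 and mitosis genes, with the replication genes at 1.21.

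Lists of genes used as markers of cell types were read beside these results, and sorted T cells can express some of these genes themselves. The summed level of 6 T cell genes was 4647 to 4769 CPM in CD4 control and 5006 to 5371 in ThpokAD libraries, with 0 of 6 called. The myeloid list was at 170 to 285 CPM in CD4 control and 332 to 410 in ThpokAD libraries. Of its 9 tested genes, 2 were called higher (Itgam and Cd68), and 2 fell at least 2-fold without a call. Over all genes tested, 1.81% were called higher in this comparison. The NK cell list was at 669 to 799 CPM in CD4 control and 2423 to 2787 in ThpokAD libraries, with 3 of 5 called higher (Klrb1c, Klra4 and Nkg7), and CD8 control libraries were at 2800 to 3116. In CD4 control libraries Ly6g, Ncr1, Klra8 and Klra4 had no counts. The B cell list was at 26.2 to 48.2 CPM in CD4 control and 22.0 to 56.5 in ThpokAD libraries with 0 of 8 called, the erythroid list at 5.09 to 128 and 9.88 to 120 with 0 of 7 called, and the dendritic cell list at 641 to 1181 and 671 to 1409 with 0 of 6 called. In the plasma cell list 1 of 5 tested genes, Prdm1, was called higher, and 2 of the 5 had a log2 fold change below 0. In the CD8 control libraries the dendritic cell list was at 193 to 306 CPM, the plasma cell list at 192 to 481 (496 to 567 in ThpokAD) and the myeloid list at 123 to 353. Called higher in ThpokAD than in CD8 control cells were 2 of 6 dendritic cell genes (H2-Ab1 and Cd74), 3 of 5 plasma cell genes (Xbp1, Irf4 and Prdm1), 3 of 9 myeloid genes (Csf1r, Cd68 and Cd14) and 1 of 5 NK cell genes (Fcer1g). Over all genes tested, 4.63% were called higher there. In those lists, in the same order, 1, 1, 3 and 4 of the tested genes had a log2 fold change below 0. No B cell or erythroid gene was called in that comparison by edgeR (0 and 1 at an unadjusted p under 0.05), and of the T cell genes Cd3d was lower. With bulk RNA, expression of these genes by the sorted T cells and by other cells in the sorts cannot be told apart. The part of any other cells in the higher level of replication genes was not tested.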

How the data were processed

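RNA was measured in 9 libraries, grouped by their titles. The deposited table gives raw counts as whole numbers, 1 row per gene symbol; nothing shows that the authors normalized them. A second deposited table holds the same libraries scaled by the authors and was not used. Tools named by the submitters' processing notes, with no role given, are DESeq2, HTSeq, STAR, Trimmomatic and bcl2fastq 2.17, and the build is mm10. Annotation release and strandedness of counting: not given in the sources used here. Per the labels' protocols, libraries were made with SMARTer low-input and Nextera XT reagents, which do not mark strand, so reads of overlapping genes cannot be told apart.

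Groups were compared by quasi-likelihood F tests in edgeR 4.0.16 (R 4.3.3) on the counts of all 9 libraries, with 1 coefficient per group, TMM scaling, genes filtered by group (minimum count 10, minimum total 15) and Benjamini-Hochberg adjustment over 15738 genes. A gene was called at an adjusted p under 0.05. Standard errors were derived from the log2 fold change and its F statistic. Levels are CPM scaled by TMM. Alternatives were DESeq2 1.42.0, limma-trend (limma 3.58.1), other scalings, no filter, fewer libraries, a replicate block and leaving out each library. Libraries of a group differed by more than sampling noise, with a chi-square per degree of freedom of 33.4 or more.

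The members and lists were chosen with earlier results of these data known. Per-library values were given for the 2 most abundant genes of each role, all genes called against CD4 control, up to 8 called in the other comparisons and the 2 lowest and 2 highest fold changes; from other lists, up to 3 called genes. Chek1, Cdc6 and the others outside this rule are given in brief. The result of 1 marker list is not reported here. Exon overlaps are from GENCODE M21.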

Additional observations from a re-analysis of the deposited data

How the results depend on the processing

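Of 40 genes, 9 were higher in ThpokAD than in CD4 control cells, and this count was 7 to 13 under RLE scaling, library totals, no filter, limma-trend, a fit of the 6 libraries alone, bias-adjusted deviances, a 2-fold minimum and the replicate block, and 17 by DESeq2. In each comparison DESeq2 gave an adjusted p for 38 of the 40 genes. Leaving out each library gave 2 to 11. Against CD8 control the 10 calls became 18 by DESeq2, 7 to 15 under the others of these settings except the block, and 3 to 9 without 1 library. The 18 calls by DESeq2 held 9 of the 10. No gene of the 40 was lower in either comparison under any of these settings. For CD8 against CD4 control, 1 gene was higher, and 2 with library totals, 3 by DESeq2 and 0 to 3 without 1 library; 1 was lower, and 2 by DESeq2, 0 at a 2-fold minimum and 0 to 1 without 1 library. The log2 ratio of mean summed levels, 1.02 against CD4 and 0.912 against CD8 control, was 1.58 for both as a difference of mean log2 CPM, which weights low genes equally. Library totals moved the median of all genes to 0.117 for CD8 against CD4 control, and that of the 40 genes from 0.22 to 0.32.

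Over all genes, ThpokAD against CD4 control gave 285 higher and 146 lower, with 850 and 606 by DESeq2, 386 and 215 by limma-trend, 131 to 281 and 50 to 196 without 1 library. ThpokAD against CD8 control gave 729 and 301, with 1529 and 856 by DESeq2, 438 to 586 and 143 to 222 without 1 library; CD8 against CD4 control gave 808 and 1031, with 1465 and 1785, and 421 to 707 and 637 to 960.

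Same-numbered libraries did not deviate together (correlations of deviations -0.0454 to 0.0620, and -0.0475 to 0.0316 for other pairs), so the replicate number shows no pairing. With the replicate block, 7 genes were higher against CD4 control and 6 against CD8 control, and over all genes 195 rose and 86 fell against CD4 control.

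Among the genes that the naming rule selected, signs turned for 6 uncalled ones; the other members were not examined for this. For CD8 against CD4 control, the log2 fold change of Pola1 was 0.00479 with library totals and -0.347 to 0.166 without 1 library (above 0 without replicate 2 of either group); that of Rpa2 was 0.0156 and -0.374 to 0.0684 (above 0 without CD8 control replicate 1). Without 1 library, Rrm1 was at -0.305 to 0.0110 (above 0 without CD4 control replicate 1), Pold1 at -0.0892 to 0.238 (below 0 without CD4 control replicate 2) and Clspn at -0.802 to 2.96 (below 0 without CD8 control replicate 3). For ThpokAD against CD8 control, Cdk2 was at -0.149 to 0.615 (below 0 without CD8 control replicate 2). The causes were not tested. Low counts limit Clspn, Cdc6, Mcm10, Gins1, Gins2, Chek1 and Fen1.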
